A study of Mus musculus with 24 samples.

Results

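The genes described here encode subunits of respiratory complexes II, III, IV and V, the part of the mitochondrial electron transport chain that follows complex I, together with the ATP synthase. They were chosen by symbol: every probe set annotated with a single gene whose symbol begins as those of succinate dehydrogenase (Sdha to Sdhd), of the cytochrome bc1 complex (Uqcr genes and Cyc1), of cytochrome c oxidase (Cox4 to Cox8 genes) or of ATP synthase (Atp5 genes). Cox7a1 and Cox8b, which mark brown-like fat cells, were left out by the rule, and Cox7c fell out because its 3 probe sets each carry 2 symbols. The rule found 65 probe sets of 45 genes among 19938 named genes on the array: 4 genes of complex II, 9 of complex III, 15 of complex IV and 17 of complex V. For a gene with more than 1 probe set, the brightest on average over 24 arrays stood for it.

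RNA came from epididymal white fat, a visceral depot beside the epididymis, of 24 wild-type male C57Bl/6 mice. The labels give 4 groups of 6: conventional mice, with a normal microbiota, and germ-free mice, without microbes, each put at 11 weeks of age on a menhaden fish oil diet or a lard diet that lasted 11 weeks. The diets were isocaloric with 45% of energy from fat, and food was withdrawn 4 h before tissue was taken. There is 1 array per mouse. The p-values rest on how far mice vary within groups, pooled for each gene over all 4 groups, and not on each group's own spread. No group was fed a low-fat diet. The sources used here do not say whether germ-free and conventional mice came from the same colony, so bacterial status and colony cannot be told apart.

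Complex II oxidises succinate to fumarate and passes the electrons to ubiquinone, complex III carries them from ubiquinol to cytochrome c, and complex IV hands them to oxygen. Complexes III and IV pump protons across the inner mitochondrial membrane, and complex V, the ATP synthase, lets them flow back to make ATP. In white adipocytes this chain supplies the ATP and redox balance for making and breaking down triglyceride, and the nuclear genes described here share the work with a few subunits encoded by mitochondrial DNA, which were not analysed here.

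Values are log2 signals, so a difference of 1 is a 2-fold difference in signal, and a level of one gene cannot be set against that of another. Arrays of the same group correlated from 0.980 to 0.997, with array medians from 7.09 to 7.20. The medians of the 6 fish oil-fed germ-free arrays lay from 7.17 to 7.20, those of fish oil-fed conventional arrays from 7.10 to 7.13, and those of the lard-fed groups from 7.09 to 7.18. Markers of mature adipocytes, 14 genes such as Adipoq and Plin1, averaged between 12.00 and 12.80 in every mouse. Lard-fed conventional mice 5 and 6 stood apart from the other 4 of their group: their adipocyte markers averaged 12.00 and 12.02, with 12.40 to 12.49 in mice 1 to 4, and their 16 macrophage markers averaged 11.21 and 11.20, with 10.35 to 10.66 in mice 1 to 4. In lard-fed germ-free mice 1 and 2 the adipocyte markers averaged 12.15 and 12.12, with 12.40 to 12.58 in mice 3 to 6. The macrophage markers of these 2 mice averaged 11.28 and 11.33, with 10.73 to 11.06 in mice 3 to 6. Transcripts typical of liver, 23 genes, averaged from 8.83 to 10.11 in germ-free mice fed fish oil and from 7.21 to 8.88 in all others. Transcripts typical of intestinal epithelium, 23 genes, averaged 9.43 in lard-fed germ-free mouse 4 and 6.88 and 6.70 in mice 5 and 2, against 6.15 to 6.61 in all other mice. Skeletal muscle markers (6.74 to 7.08) and epididymis and germ cell markers (5.31 to 5.76) stayed within narrow ranges over all mice. The RNA is a mixture of cells, so fewer cells of a type and less RNA per cell cannot be told apart in any comparison below.

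Averaged by complex, the 4 groups took the same order everywhere: highest in fish oil-fed conventional mice, then fish oil-fed germ-free, then lard-fed conventional, and lowest in lard-fed germ-free mice. Each gene was first expressed relative to its own mean over the 24 mice, on the log2 scale, and these values are a description with no test. The 9 complex III genes spread most, from 0.53 ± 0.13 (SD, n = 6) in fish oil-fed conventional mice through 0.13 ± 0.13 and -0.17 ± 0.23 to -0.49 ± 0.10. The 15 complex IV genes went from 0.31 ± 0.03 through 0.12 ± 0.07 and -0.07 ± 0.17 to -0.36 ± 0.08, and the 17 complex V genes from 0.39 ± 0.08 through 0.09 ± 0.10 and -0.09 ± 0.19 to -0.39 ± 0.07. The 4 complex II genes ran from 0.34 ± 0.13 through 0.12 ± 0.08 and -0.15 ± 0.11 to -0.30 ± 0.07. Fish oil-fed germ-free and lard-fed conventional mice, the middle groups in this order, overlapped for every complex. The wide SD of lard-fed conventional mice came with mice 5 and 6, with complex III at -0.44 and -0.48, while mice 1 to 4 ranged from -0.08 to 0.05. These were also the 2 mice with the lowest adipocyte and highest macrophage marker means of their group. Lard-fed germ-free mice 1 and 2 likewise had the lowest adipocyte and highest macrophage marker means of their group. Their complex III means were -0.38 and -0.67, the highest and the lowest of that group. The part of that mixture in the subunit values was not tested.

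**Figure D1:**
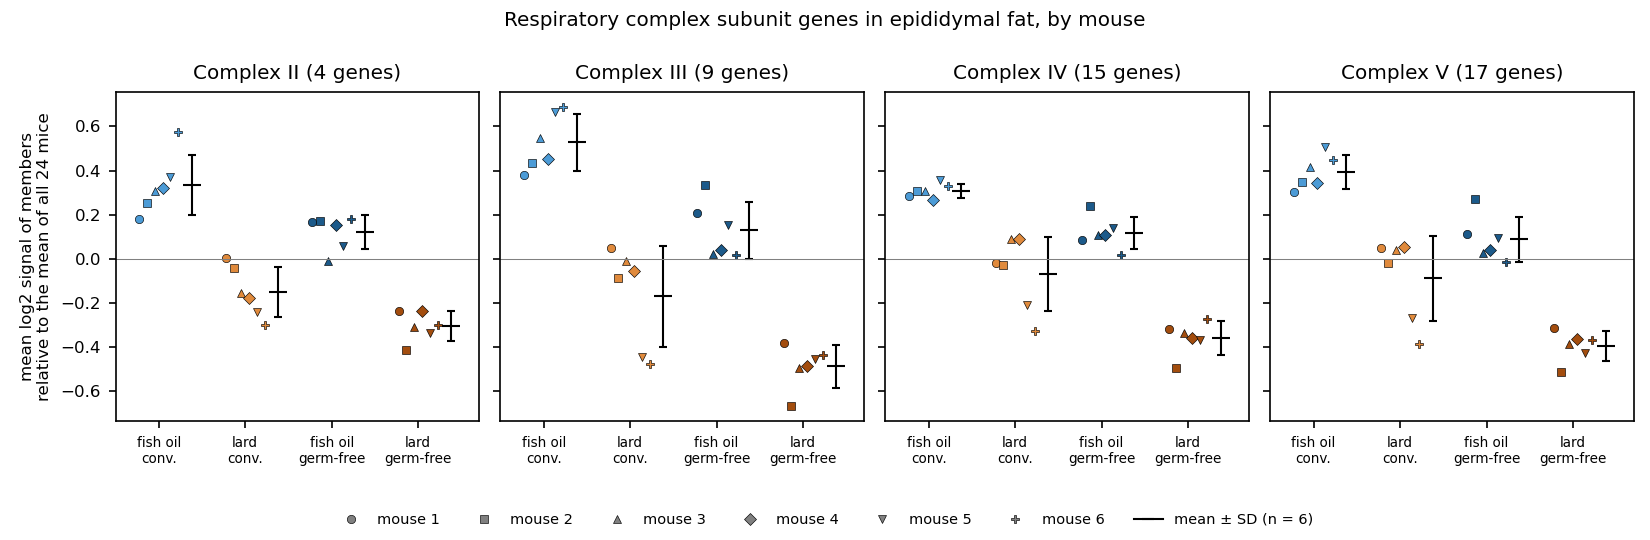
Each panel shows 1 complex; each point is the mean log2 signal of its genes in 1 mouse, relative to their mean over all 24 mice, with the group mean ± SD (n = 6; conv., conventional). Fish oil-fed conventional mice lie at the top and lard-fed germ-free mice at the bottom of every panel, and lard-fed conventional mice 5 and 6 lie below the other 4 of their group.

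In conventional mice, subunit genes of all 4 complexes were lower with lard than with fish oil. Of the 45 genes, 38 were lower with lard, 1 was higher and 6 did not pass the threshold of a limma adjusted p of 0.05 over all 19938 genes. Over all genes tested, 15.6% were lower and 15.4% higher, 31.0% in all. For 36 of the 45 every lard-fed mouse lay below every fish oil-fed mouse, where 6.62% of all genes did so and 8.01% lay apart the other way. The median log2 change of the 45 genes was -0.49, against -0.04 over all genes. Of the 45, 17 passed with a change of at least 1.5-fold, as did 1627 of all 19938 genes. All 9 complex III genes fell, with a median of -0.74, 3 of 4 complex II genes (-0.51), 11 of 15 complex IV genes (-0.43) and 15 of 17 complex V genes (-0.43). The complex IV genes that did not fall were Cox4i2, Cox6a2, Cox7b2 and Cox8c, isoforms known mainly from other tissues. In the same comparison 12 of 14 adipocyte markers were lower and 1 higher with lard. Of 16 macrophage markers 13 were higher and 1 lower. The part of these cell types in the fall of the subunits was not tested. Without lard-fed conventional mice 5 and 6, 37 of the 45 genes were lower and none was higher, with a median change of -0.38. In that fit 10.1% of all genes were lower and 12.2% higher.

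In complex II, the largest fall was that of Sdhb, the iron-sulfur subunit that relays electrons from succinate towards ubiquinone. Its signal lay from 11.07 to 11.58 (median 11.24) in fish oil-fed conventional mice and from 10.15 to 10.61 (median 10.50) in lard-fed ones. Every lard-fed mouse was below every fish oil-fed mouse, a change of -0.85 ± 0.08 (SE, limma adjusted p = 7.7e-08), or 1.80-fold. Sdha, the flavoprotein that binds succinate, changed by -0.58 (adjusted p = 2.8e-06), and Sdhc, a membrane anchor, by -0.45 (adjusted p = 4.8e-05). Sdhd, the other anchor subunit, was the exception at -0.07 (adjusted p = 0.558).

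In complex III, Uqcr11, a small accessory subunit, had the largest fall. It lay from 11.51 to 11.78 (median 11.61) with fish oil and from 9.91 to 10.90 (median 10.73) with lard. The groups were apart, with a change of -1.10 ± 0.15 (limma adjusted p = 7.0e-06), or 2.14-fold. The lowest lard-fed mice were mice 5 and 6, and without them the change was -0.82 (adjusted p = 2.9e-05). Uqcr10, Uqcrq and Uqcrh, further small subunits, changed by -0.88, -0.84 and -0.74, and Uqcrb by -0.41. The redox subunits fell as well: Uqcrfs1, the Rieske iron-sulfur protein, by -0.79 and Cyc1, the cytochrome that donates electrons to cytochrome c, by -0.59. The core proteins Uqcrc1 and Uqcrc2, which form the matrix-facing bulk of the complex, changed by -0.47 and -0.48.

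In complex IV, Cox4i1, the common isoform of a regulatory subunit that binds ATP, fell most. It lay from 11.85 to 12.19 (median 11.92) with fish oil and from 10.80 to 11.40 (median 11.30) with lard. The groups did not overlap, and the change was -0.78 ± 0.09 (limma adjusted p = 5.6e-07), or 1.72-fold. Another 10 complex IV genes fell by between 0.32 (Cox7b) and 0.68 (Cox5a) on the log2 scale, among them Cox5b, a zinc-binding subunit, and Cox7a2l.

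In complex V, the largest fall was that of Atp5k. It encodes the e subunit, which helps ATP synthase dimers form. Its signal lay from 9.68 to 10.26 (median 9.91) with fish oil and from 8.24 to 9.36 (median 8.93) with lard. The groups were apart, and the change was -1.10 ± 0.17 (limma adjusted p = 2.6e-05). Atp5l, the g subunit beside it, changed by -0.99, Atp5o, which joins the head to the peripheral stalk, by -0.77, and Atp5j2, the f subunit, by -0.67. Of the subunits that make up the catalytic ring, Atp5b, which holds the catalytic sites, changed by -0.23 ± 0.05 (adjusted p = 0.00063) and its partner Atp5a1 by -0.24 ± 0.06 (adjusted p = 0.00348). Atp5d, of the central stalk, was at 0.10 (adjusted p = 0.251), and Atp5g1, 1 of 3 genes for the same c-ring protein, at -0.16 (adjusted p = 0.287), while the other two, Atp5g2 and Atp5g3, fell by 0.28 and 0.56 on the log2 scale. These probe sets differ in their own sensitivity, and the differences between the changes of single subunits were not tested.

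The 250 bases before the transcript start were read where RefSeq (GRCm38.p6) gave a window, for 33 of the 45 genes in 36 windows. No window was read for Sdhc, Cyc1, Uqcrb, Uqcrc2, Uqcrq, Cox4i1, Cox4i2, Cox6a2, Cox6c, Cox8c, Atp5a1 and Atp5mpl. To show what genes that moved together hold there, 3 windows are printed 5′ to 3′ on the strand of the gene, with a motif match in capitals: those of Uqcr11 and Atp5k, which had the largest falls with lard, and that of Atp5b, which alone of the 45 rose with lard in germ-free mice. The Uqcr11 window (chr10:80406822-80407071, minus strand) holds CCGGAAG, the core bound by GABP and other ETS factors, with its first base at -66, counted from the start. The Atp5k window (chr5:108434400-108434649, minus strand) holds a match to the pattern of NRF1, which reads GCGC, any 2 bases and GCGC, at -50. The Atp5b window (chr10:128083057-128083306, plus strand) holds none of the 4 patterns searched.
Uqcr11: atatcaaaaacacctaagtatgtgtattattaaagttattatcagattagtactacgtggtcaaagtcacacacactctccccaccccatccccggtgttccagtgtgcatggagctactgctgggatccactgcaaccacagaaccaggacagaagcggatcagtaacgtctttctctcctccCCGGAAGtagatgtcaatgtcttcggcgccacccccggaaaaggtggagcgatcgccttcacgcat
Atp5k: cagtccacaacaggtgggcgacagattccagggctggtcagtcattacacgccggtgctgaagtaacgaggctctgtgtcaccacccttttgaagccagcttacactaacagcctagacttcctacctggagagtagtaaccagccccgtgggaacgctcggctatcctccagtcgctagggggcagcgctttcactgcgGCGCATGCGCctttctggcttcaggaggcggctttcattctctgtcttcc
Atp5b: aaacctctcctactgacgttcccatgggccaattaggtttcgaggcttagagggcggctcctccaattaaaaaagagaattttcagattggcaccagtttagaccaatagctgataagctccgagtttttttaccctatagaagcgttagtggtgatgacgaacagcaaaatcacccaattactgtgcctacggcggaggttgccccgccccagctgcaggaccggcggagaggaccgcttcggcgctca
Both strands were searched. The NRF1 pattern, which is its own reverse complement, was in 7 of 36 windows of these genes (19.4%), those of Sdha, Sdhd, Cox6a1, Atp5c1, Atp5g2, Atp5h and Atp5k, and in 4.98% of all 32851 windows. CCGGAAG was in 9 of 36 (25%), those of Sdhd, Uqcr11, Uqcrh, Cox6a1, Cox6b1, Atp5e, Atp5h, Atp5j and Atp5l, and in 6.91% of all windows. AAGGTCA, the half-site of oestrogen-related receptors, was in the windows of Atp5g3 and Atp5l (5.56%, against 4.08% of all), and AAGATGGC, a YY1 pattern, in that of Atp5j (2.78%, against 1.56%). A CCGGAAG match can share its last 3 letters with either of the latter patterns. Sdhd, whose window has both the NRF1 pattern and CCGGAAG, did not pass the threshold in conventional mice, and Uqcr10, whose window has none of the patterns, fell. A match is a description of the letters and not a measured binding site.

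In germ-free mice the diets differed in much the same way. With lard, 36 of the 45 genes were lower, 1 was higher and 8 did not pass the threshold, with 27.1% of all genes lower and 20.4% higher, 47.5% in all. After median centring of each array, 16.6% of all genes were lower in this comparison, and 34 of the 45. The groups did not overlap for 34 genes that were lower with lard, against 11.1% of all genes, with 13.4% apart the other way. The median change was -0.51, against -0.08 over all genes. Of the 45, 20 passed with a change of at least 1.5-fold, as did 1985 of all 19938 genes. By complex, 4 of 4 fell in complex II, 8 of 9 in complex III, 11 of 15 in complex IV and 13 of 17 in complex V, with medians of -0.38, -0.51, -0.56 and -0.59. Among markers, 10 of 14 adipocyte genes were lower and 1 higher with lard, 12 of 16 macrophage genes higher and 3 lower, and 19 of 23 liver transcripts lower and 1 higher. Their part in these changes was not tested. Adding the liver transcript mean to the fit, 27 of the 45 genes were lower and 2 higher, with 15.1% of all genes lower and 12% higher. This mean was raised in the fish oil-fed germ-free group, so the term and that group largely coincide and are hard to separate. Without lard-fed germ-free mice 2, 4 and 5, 34 were lower, with 12% of all genes lower and 14.5% higher.

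In each complex the gene with the largest fall was the same as in conventional mice. Uqcr11 lay from 10.80 to 11.50 (median 11.12) with fish oil and from 9.51 to 10.10 (median 9.91) with lard, a change of -1.25 ± 0.15 (limma adjusted p = 1.0e-06), or 2.38-fold. Atp5k lay from 9.00 to 9.82 (median 9.44) with fish oil and from 8.08 to 8.62 (median 8.27) with lard, a change of -1.14 ± 0.17 (adjusted p = 1.3e-05). Neither gene had overlapping groups. Cox4i1 lay from 11.58 to 11.75 (median 11.71) with fish oil and from 10.60 to 11.01 (median 10.82) with lard, and changed by -0.86 ± 0.09 (adjusted p = 1.7e-07). Sdhb lay from 10.73 to 11.00 (median 10.87) with fish oil and from 10.07 to 10.36 (median 10.16) with lard, and changed by -0.70 ± 0.08 (adjusted p = 8.2e-07). Both were apart between the diets. Sdhd, which had not passed in conventional mice, fell by 0.27 on the log2 scale (adjusted p = 0.00533), but the difference between the bacterial states did not pass (interaction adjusted p = 0.265).

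The 8 genes that did not pass in germ-free mice were Uqcrc2, Cox4i2, Cox6a2, Cox7b2, Cox8c, Atp5a1, Atp5d and Atp5g1, and all of these but Uqcrc2, Cox6a2 and Atp5a1 had not passed in conventional mice either. The difference of Uqcrc2 was -0.10 (adjusted p = 0.238), that of Atp5a1 0.08 (adjusted p = 0.253) and that of Atp5d 0.08 (adjusted p = 0.340), while the changes of Sdha and Uqcrc1 passed at -0.25 and -0.24. Adding the liver transcript mean to the fit, the change of Sdha turned to 0.05 (adjusted p = 0.743). That term largely coincides with the fish oil-fed germ-free group. Atp5b was higher with lard: it lay from 12.91 to 13.11 (median 12.97) with fish oil and from 13.04 to 13.23 (median 13.16) with lard. The groups overlapped, and the change was 0.17 ± 0.05 (limma adjusted p = 0.00641). Without lard-fed germ-free mice 2, 4 and 5 it was 0.15 (adjusted p = 0.0839).

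The diet comparisons in conventional and germ-free mice share no animal. Of the 45 genes, 35 were lower with lard in both, which is 92.1% of those lower in conventional and 97.2% of those lower in germ-free mice. Over all 19938 genes, 1964 (9.85%) were lower in both, out of 3102 lower in conventional and 5396 lower in germ-free mice. Across the 45 genes the changes in the 2 states followed each other (Pearson's r = 0.862, Spearman's rho = 0.861). Genes share arrays and are not independent, and over all genes r was 0.734.

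**Figure D2:**
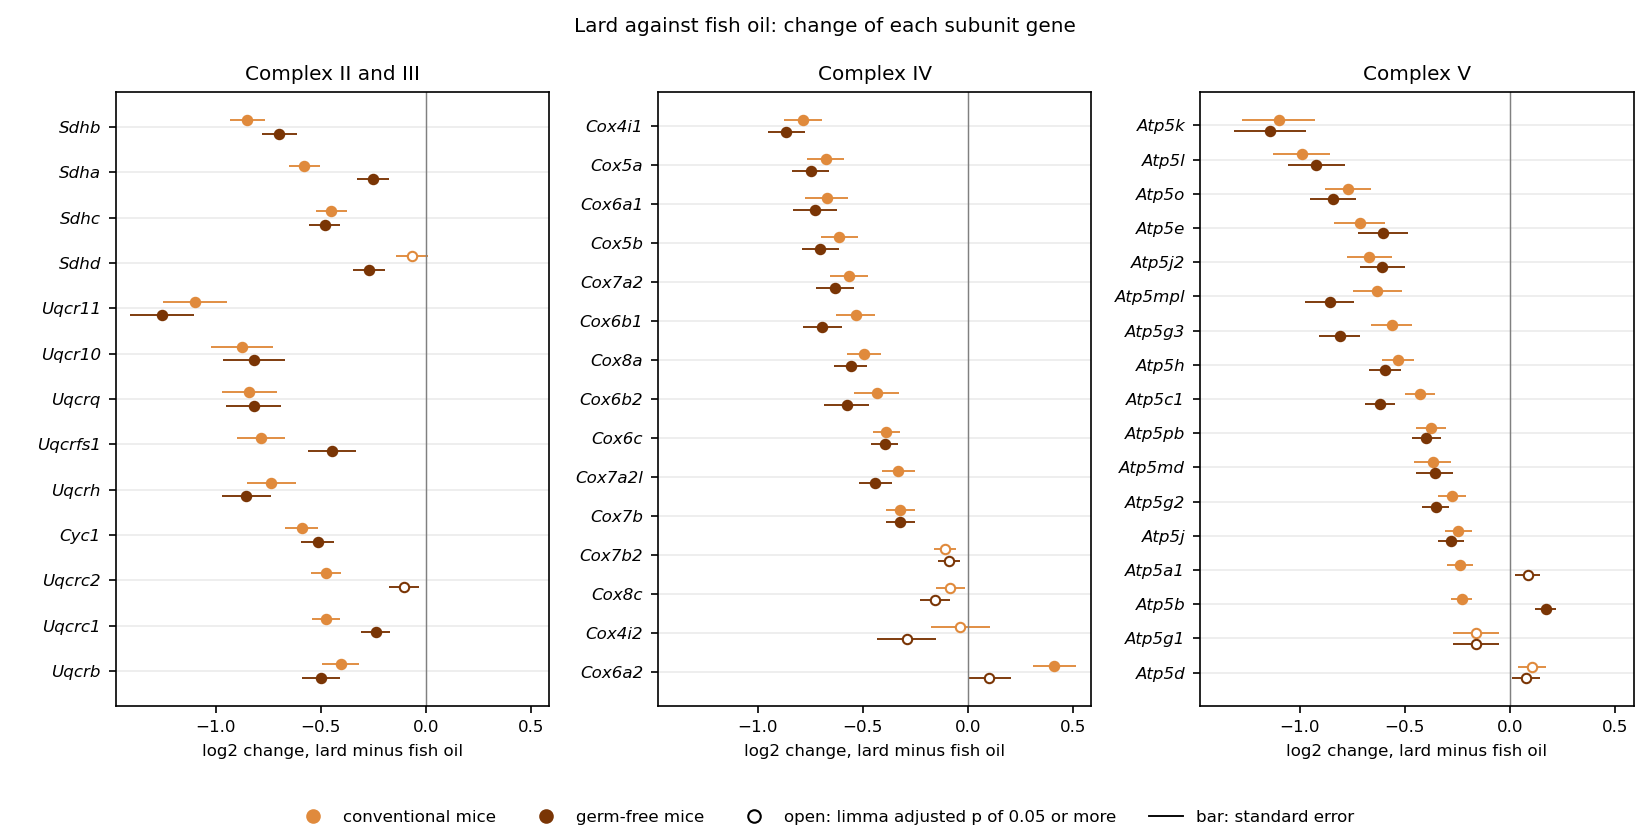
Log2 change of each subunit gene, lard minus fish oil, with its standard error, in conventional (orange) and germ-free (brown) mice; open circles mark a limma adjusted p of 0.05 or more. Most points lie left of 0 in both states; Atp5b lies left of 0 in conventional mice and right of 0 in germ-free mice.

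Within one diet, subunit genes were mostly higher in conventional than in germ-free mice, with smaller differences than those between diets. These comparisons use the same mice as the diet comparisons. With lard, 34 of the 45 genes were higher in conventional mice, 2 were lower and 9 did not pass, where 8.77% of all genes were higher and 7.48% lower, 16.3% in all. The median difference was 0.30, against 0.02 over all genes. Of the 45, 2 passed with at least 1.5-fold, as did 294 of all 19938 genes. The groups were apart for 3 genes that were higher and 2 that were lower (2.55% and 1.60% of all genes). By complex, 3 of 4, 6 of 9, 11 of 15 and 14 of 17 genes of complexes II to V were higher. In the same comparison 1 of 14 adipocyte markers and 2 of 16 macrophage markers were lower in conventional mice.

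The count with lard varied with single mice. Leaving out 1 mouse at a time gave between 21 and 37 genes past the threshold, with 21 without lard-fed conventional mouse 3, 22 without mouse 4 and 23 without mouse 1 of the same group or without lard-fed germ-free mouse 2. In complex II the count of higher genes went from 3 to 0 without lard-fed conventional mouse 1 or lard-fed germ-free mouse 2, and to 1 without lard-fed conventional mouse 2, 3 or 4 or lard-fed germ-free mouse 5. In complex IV it went from 11 to 7 without lard-fed conventional mouse 1 and to 6 without mouse 3 or 4. In complex V it went from 14 to 8 without lard-fed conventional mouse 3 or 4 or lard-fed germ-free mouse 2, and to 9 without lard-fed conventional mouse 1 or lard-fed germ-free mouse 5. Intestinal transcripts averaged 6.70, 9.43 and 6.88 in lard-fed germ-free mice 2, 4 and 5, and 6.59 in mouse 6. Mouse 2 also had the lowest mean of the 45 genes, -0.53, with -0.40 to -0.32 in the other mice of its group. Without lard-fed germ-free mice 2, 4 and 5, 2 of 45 genes passed, Cox5a (0.55, limma adjusted p = 0.0329) and Atp5mpl (0.66, adjusted p = 0.0410). The median difference was 0.25. In that fit 0.888% of all genes passed, with 3 mice in the group. Without lard-fed conventional mice 5 and 6, 35 genes were higher and 2 lower, with a median of 0.41. In that fit 12.9% of all genes were higher and 12.6% lower.

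The gene with the largest difference was Atp5mpl, a small membrane subunit of ATP synthase. It lay from 10.74 to 11.68 (median 11.39) in lard-fed conventional and from 10.42 to 10.86 (median 10.54) in lard-fed germ-free mice, a difference of 0.73 ± 0.12 (limma adjusted p = 0.00041), or 1.66-fold. The groups overlapped through mouse 6 of the conventional group. Uqcr11 lay from 9.91 to 10.90 (median 10.73) against 9.51 to 10.10 (median 9.91), a difference of 0.64 ± 0.15 (adjusted p = 0.00495), also with overlap. Cox5a, a matrix-facing subunit of cytochrome c oxidase, lay from 10.30 to 10.82 (median 10.71) against 10.01 to 10.10 (median 10.05). Its groups did not overlap, with a difference of 0.56 ± 0.09 (adjusted p = 0.00041). Sdhb had the largest difference of complex II, 0.26 (adjusted p = 0.0292), a call that was lost on leaving out any of 7 mice, lard-fed conventional mice 1 to 4 and lard-fed germ-free mice 2, 4 and 5, where the adjusted p lay between 0.0541 and 0.0782. The 2 genes that were lower in conventional mice were Atp5b at -0.27 ± 0.05 (adjusted p = 0.00076) and Atp5a1 at -0.22 ± 0.06 (adjusted p = 0.0128), the subunits of the catalytic ring, both with groups apart. Uqcrc2, Uqcrc1 and Sdha differed by -0.07, 0.03 and -0.15 and did not pass.

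With fish oil, 25 of the 45 genes were higher in conventional mice, none was lower and 20 did not pass, with 7.15% of all genes higher and 5.21% lower, 12.4% in all. Among all calls in this comparison 57.8% were higher, and 79.7% after median centring of each array. Centring gave 35 of the 45 genes higher, against 13.8% of all genes. The median difference was 0.26, against -0.01 over all genes, and the groups were apart for 17 genes, where 3.81% of all genes were apart in that direction and 3.22% in the other. By complex, 1 of 4, 8 of 9, 7 of 15 and 9 of 17 genes were higher. Of the liver transcripts 17 of 23 were lower in conventional mice, and so were 7 of 16 macrophage markers. Of 8 brown-like adipocyte markers 4 were higher in conventional mice. Adipocyte marker means lay from 12.62 to 12.78 in conventional and from 12.60 to 12.80 in germ-free mice. The part of these cell types in the differences was not tested. Adding the liver transcript mean to the fit, 12 of the 45 genes were higher, with a median of 0.35, against 4.67% of all genes. Here too the term largely coincides with the germ-free group. With repeated quantile normalization 16 were higher, against 7.75% of all genes. Without fish oil-fed conventional mouse 5 the count was 15. In complex IV the count went from 7 to 2 without that mouse or without fish oil-fed germ-free mouse 4 or 6, and to 3 without fish oil-fed conventional mouse 6.

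Atp5e, the epsilon subunit of the central stalk of ATP synthase, differed most with fish oil. It lay from 10.20 to 10.65 (median 10.33) in conventional and from 9.37 to 10.15 (median 9.67) in germ-free mice, a difference of 0.66 ± 0.12 (limma adjusted p = 0.00106) with groups apart. Cox5a lay from 11.14 to 11.42 (median 11.28) against 10.57 to 11.05 (median 10.80), also apart, a difference of 0.49 ± 0.09 (adjusted p = 0.00115). Sdhb lay from 11.07 to 11.58 against 10.73 to 11.00, apart as well, with a difference of 0.42 ± 0.08 (adjusted p = 0.00209). It was the only complex II gene past the threshold, with Sdhc at 0.22 (adjusted p = 0.0510), which passed on leaving out fish oil-fed conventional or germ-free mouse 1, lard-fed conventional mouse 1, 4, 5 or 6, or lard-fed germ-free mouse 2 (adjusted p from 0.0256 to 0.0491). In complex III, Uqcr10 lay from 10.67 to 11.06 (median 10.84) against 10.005 to 10.78 (median 10.32) and differed by 0.55 ± 0.15 (adjusted p = 0.0155), overlapping through germ-free mouse 2. Uqcrfs1, Uqcrc1 and Uqcrc2, which had not passed with lard, differed by 0.49, 0.26 and 0.30 here.

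**Figure D3:**
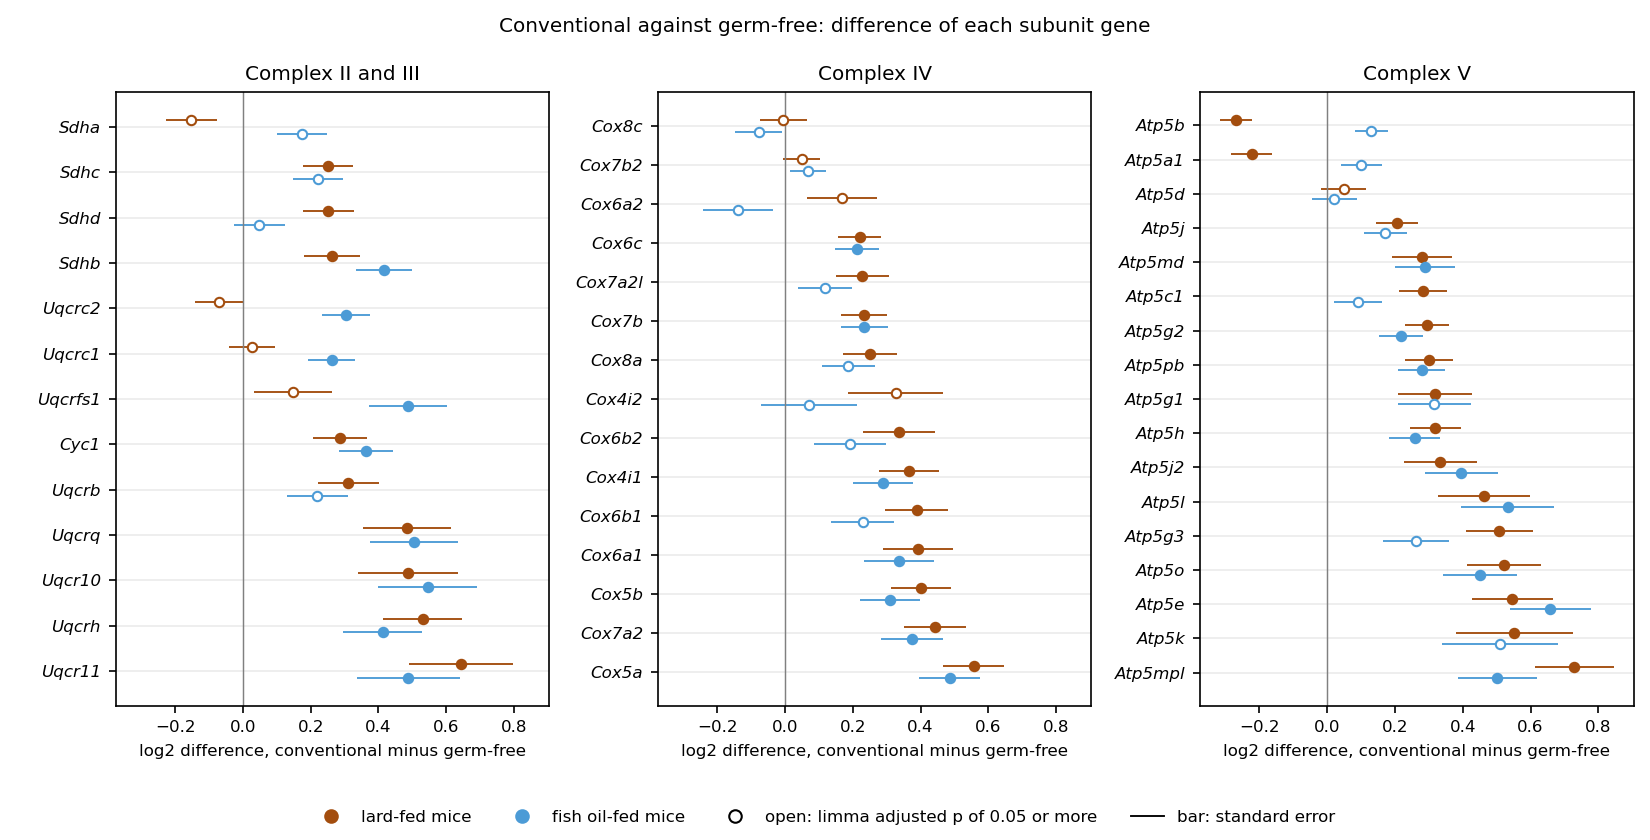
Log2 difference of each subunit gene, conventional minus germ-free, with its standard error, in lard-fed (brown) and fish oil-fed (blue) mice; open circles mark a limma adjusted p of 0.05 or more. Most points lie right of 0 on both diets; Atp5b and Atp5a1 lie left of 0 with lard and right of 0 with fish oil.

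The interaction asks whether the difference between conventional and germ-free mice depended on the diet. Only 3 of the 45 genes passed, all with a lower value for lard than for fish oil, and 42 did not pass, where 4.38% of all genes passed in that direction and 2.81% in the other, 7.20% in all. Of all calls 39.1% were positive, and 15.6% after median centring, with 5 of the 45 genes and 10% of all genes passing. The median of the 45 genes was 0.04, as over all genes. The 3 genes were Atp5b and Atp5a1, the beta and alpha subunits of the catalytic ring, and Uqcrc2, a core protein of complex III. Sdha was at -0.33 (limma adjusted p = 0.0576), with adjusted p between 0.0379 and 0.0482 on leaving out any of 6 single mice (fish oil-fed conventional 1 or 2, fish oil-fed germ-free 6, lard-fed conventional 1 or 6, lard-fed germ-free 3), and Uqcrfs1 was at -0.34 (adjusted p = 0.218).

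Atp5b lay from 13.05 to 13.24 (median 13.11) in fish oil-fed conventional mice, from 12.86 to 12.94 (median 12.88) in lard-fed conventional, from 12.91 to 13.11 (median 12.97) in fish oil-fed germ-free and from 13.04 to 13.23 (median 13.16) in lard-fed germ-free mice. Lard-fed conventional mice were the low group, below every fish oil-fed conventional and every lard-fed germ-free mouse. The interaction was -0.40 ± 0.07 (limma adjusted p = 0.00164) and passed on leaving out any 1 mouse. Atp5a1 took the same form, with lard-fed conventional mice from 11.99 to 12.20 (median 12.16) and the other groups with medians from 12.26 to 12.35, and an interaction of -0.32 ± 0.09 (adjusted p = 0.0235). Uqcrc2 differed in form: fish oil-fed conventional mice had the highest values, from 12.20 to 12.70 (median 12.40), overlapping with fish oil-fed germ-free mice, and the other groups had medians from 11.95 to 12.11. Its interaction was -0.37 ± 0.10 (adjusted p = 0.0278). It was lost without lard-fed conventional mouse 3 (adjusted p = 0.0547), fish oil-fed germ-free mouse 3 (0.0501) or mouse 5 (0.0506), and that of Atp5a1 without lard-fed conventional mouse 3 (0.0503), which left 1 gene. Without lard-fed germ-free mice 2, 4 and 5 only Atp5b passed (-0.38, adjusted p = 0.0235), with 1.13% of all genes passing. Without lard-fed conventional mice 5 and 6 these 3 passed together with Cox6b1 (0.33), Atp5c1 (0.28), Atp5g3 (0.43) and Atp5mpl (0.42), which were positive. In that fit 13.6% of all genes passed.

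**Figure D4:**
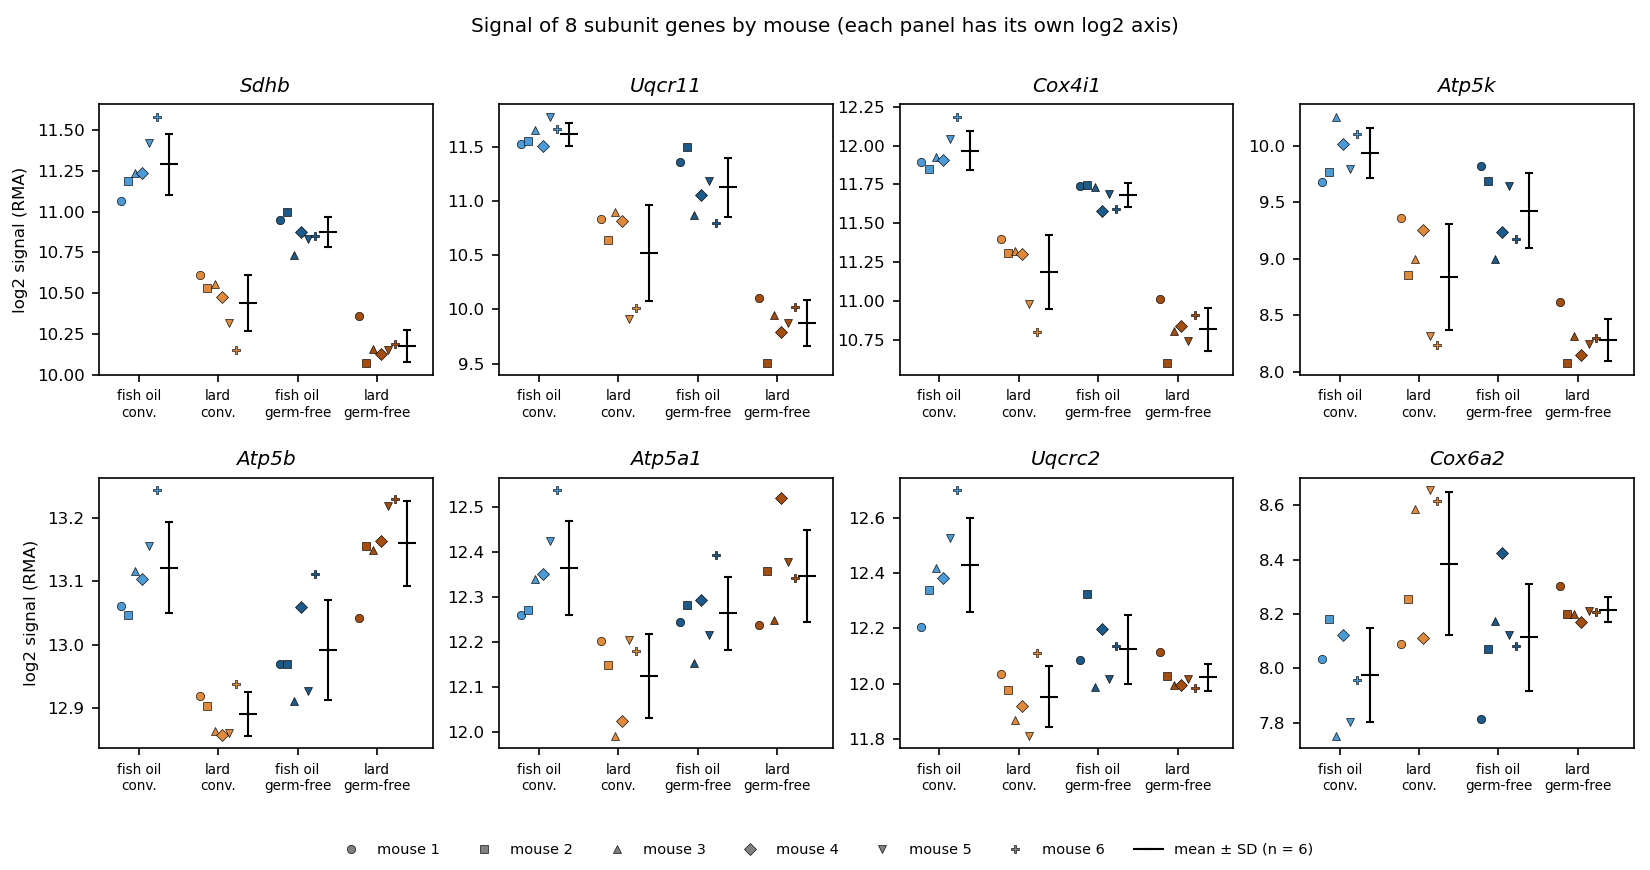
Log2 signal of 8 subunit genes in each mouse with the group mean ± SD (n = 6; conv., conventional); every panel has its own axis. The top row falls with lard in both states, Atp5b and Atp5a1 are lowest in lard-fed conventional mice, Uqcrc2 is highest in fish oil-fed conventional mice, and Cox6a2 is spread widely among lard-fed conventional mice.

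Complex IV has isoforms that are known mainly from other tissues, and 4 of the 5 on the array, Cox4i2, Cox6a2, Cox7b2 and Cox8c, did not fall past the threshold with lard. Cox6a2, the heart and skeletal muscle isoform, was the 1 gene of the 45 that was higher with lard in conventional mice. It lay from 7.75 to 8.18 (median 7.996) with fish oil and from 8.09 to 8.66 (median 8.42) with lard, overlapping, with a change of 0.41 ± 0.10 (limma adjusted p = 0.00333). Without lard-fed conventional mice 5 and 6 the change was 0.29 (adjusted p = 0.0518). In germ-free mice it was at 0.10 (adjusted p = 0.421), while its common counterpart Cox6a1 fell by 0.67 and 0.73 on the log2 scale in the 2 states. Of 16 skeletal muscle markers 1 was higher with lard in conventional mice.

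Cox4i2, a lung isoform that responds to low oxygen, lay between 7.81 and 8.83 and did not pass in any comparison fitted to all mice. Its diet differences were -0.04 (adjusted p = 0.878) in conventional and -0.29 (adjusted p = 0.0879) in germ-free mice. Cox7b2 lay between 4.41 and 4.79 and Cox8c, a testis isoform, between 6.76 and 7.28, and neither passed in any comparison over all mice. Leaving out 1 mouse brought 2 of these genes past the threshold in germ-free mice: Cox4i2 without fish oil-fed mouse 1 (-0.37, adjusted p = 0.0357) or lard-fed mouse 6 (-0.37, adjusted p = 0.0333), and Cox8c without lard-fed mouse 3 (-0.20, adjusted p = 0.0212). Cox4i2 also passed for conventional against germ-free mice with lard, without lard-fed conventional mouse 5 (0.40, adjusted p = 0.0469) or mouse 6 (0.41, adjusted p = 0.0390). Cox6b2, also known from testis, was the exception and fell with lard by 0.43 in conventional (adjusted p = 0.00268, overlapping) and by 0.58 in germ-free mice (adjusted p = 0.00012, apart), beside -0.53 and -0.69 for its common counterpart Cox6b1. Its own levels were from 6.35 to 7.50 over all mice. Low signals are compressed towards background on arrays, and 44 of the 45 genes lay above the 40th percentile of mean signal, with Cox7b2 below it. Cross-hybridisation between isoforms was not tested.

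For the 12 genes with several probe sets, the diet changes had the same sign in every probe set, in 24 of 24 gene and state pairs, and in 23 of them all probe sets or none passed. The widest spread between probe sets of a gene was 0.20, for Cox7a2l in germ-free mice (-0.44 and -0.24). Atp5md was the exception in calls, with 1 probe set at -0.21 in germ-free mice that did not pass.

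Other genes of oxidative phosphorylation were read from lists. Complex I, which feeds electrons from NADH into the chain, moved as complexes II to V did. Of 35 measured subunits 31 (88.6%) fell with lard in conventional and 34 (97.1%) in germ-free mice, against 15.6% and 27.1% of all genes. The medians were -0.65 and -0.62, and none was higher. In conventional against germ-free mice 29 (82.9%) were higher with lard and 31 (88.6%) with fish oil, against 8.77% and 7.15% of all genes. These medians were 0.47 and 0.43. The list includes Ndufa4, which was named for complex I and is now placed in complex IV, and which changed by -1.05 and -0.99 with lard in conventional and germ-free mice. Cycs, the cytochrome c that shuttles electrons between complexes III and IV, changed by -0.40 and -0.48 (adjusted p = 0.00012 and 1.1e-05).

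The counts of further lists stand beside the shares over all genes given above, with lard 15.6% lower and 15.4% higher in conventional mice, and for germ-free mice 27.1% lower and 20.4% higher. Of 33 measured factors that assemble complexes II to V, 20 (60.6%) were lower and 1 higher with lard in conventional mice, and 13 (39.4%) were lower and 2 higher in germ-free mice, with medians of -0.27 and -0.15. Cox17, a copper chaperone for cytochrome c oxidase, changed by -0.74 and -0.65, and Uqcc1, an assembly factor of complex III, by -0.67 and -0.52. In conventional against germ-free mice 17 (51.5%) were higher with lard and 26 (78.8%) with fish oil, against 8.77% and 7.15% of all genes, led by Sdhaf4, a complex II assembly factor, at 0.73 and 0.69. Among 29 measured membrane and import proteins, 17 (58.6%) were lower and 1 higher with lard in conventional mice, and 13 (44.8%) were lower and 5 (17.2%) higher in germ-free mice. Tomm7, of the outer membrane import channel, changed by -0.80 and -0.83. Among 18 carriers and nucleotide exchangers, 11 (61.1%) were lower with lard in conventional mice, led by Coq7 of ubiquinone synthesis (-0.77). In germ-free mice 8 (44.4%) were lower and 4 (22.2%) higher, with Slc25a5, an ADP/ATP carrier, at 0.46.

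Of 17 measured regulators of mitochondrial biogenesis, 6 (35.3%) were lower and 1 higher with lard in conventional mice, and 6 (35.3%) were lower and 3 (17.6%) higher in germ-free mice, with medians of -0.11 and 0.01. The germ-free shares lie near those over all genes, 27.1% lower and 20.4% higher. Ppargc1a, the coactivator PGC-1 alpha that drives mitochondrial genes, changed by -1.23 ± 0.16 (limma adjusted p = 3.1e-06) and -0.53 ± 0.16 (adjusted p = 0.00843). Sirt3, a mitochondrial deacetylase, changed by -0.74 and -0.61. Among genes of the factors whose patterns were searched in the promoters, Nrf1 and Gabpa, which encodes 1 subunit of GABP, did not pass in either state. Nrf1 was at 0.05 (adjusted p = 0.582) and -0.12 (adjusted p = 0.0699), and Gabpa at -0.13 (adjusted p = 0.151) and 0.03 (adjusted p = 0.746). The other listed genes of these factors, Gabpb1, Gabpb2, Yy1, Esrrb and Esrrg, were measured but are not given singly here. Tfam, which packages and transcribes mitochondrial DNA, was at -0.24 (adjusted p = 0.122) and 0.26 (adjusted p = 0.0664). Esrra, oestrogen-related receptor alpha, changed by -0.25 (adjusted p = 0.0272) in conventional mice and was at -0.13 (adjusted p = 0.199) in germ-free mice. Of 8 brown-like adipocyte markers 3 were lower and 1 higher with lard in conventional mice and 3 were lower in germ-free mice; Ppargc1a is in this list as well.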

How the data were processed

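Per the submitters' processing notes, the authors made the deposited log2 values with RMA, a method that subtracts background, equalises the arrays by quantile normalization and sums the probes of each set, so a shift shared by all genes is not visible. The version, annotation and scan dates behind it were not given in the sources used here. Batches could not be examined. Of 35556 probe sets, 21789 had 1 gene symbol in the platform annotation, 1621 several and 12146 none. Symbols were checked against RefSeq GRCm38.p6, where 21698 were found. Precision is limited by the number of arrays, and 0 pairs of arrays were identical.

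Group means of all 24 arrays were fitted with lmFit and eBayes in limma 3.58.1 (R 4.3.3) over 19938 genes, with 5 contrasts and two-sided Benjamini-Hochberg adjusted p-values over all of them, at a threshold of 0.05. The interaction is conventional minus germ-free with lard, less the same with fish oil. Every adjusted p comes from limma and uses a spread pooled over the groups in the fit. Spreads differed between groups for some genes. With lard, the SD of Uqcr10 was 0.42 for conventional animals and 0.09 for germ-free ones. The fit was run on simulated data with independent genes and equal spread in all groups. These settings are simpler than the real data, so that run does not measure the error rate here.

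The genes, 13 lists and alternatives were chosen with earlier results of these data known. Values by mouse are given for the gene of each complex with the largest change past the threshold in each comparison, genes higher with lard, and isoforms known from other tissues. From other lists, up to 2 genes per direction with the largest changes past the threshold could be named. Ndufa4, Esrra, Nrf1, Gabpa, Tfam and Cycs were named for their roles. Alternatives were median centring, repeated quantile normalization, a filter below the 40th percentile, averaging a gene's probe sets, testing every probe set, array weights, trend and robust priors, only the groups compared, a replicate block, at least 1.5-fold, the liver transcript mean as a term of the fit, and leaving out each mouse, lard-fed conventional mice 5 and 6, or lard-fed germ-free mice 2, 4 and 5.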

Additional observations from a re-analysis of the deposited data

Results flagged for a closer look

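Among 80 sets of 6 mice, those of 20 subunit genes in 4 groups, 5 had a mouse far from the others by Dixon's criterion, where chance gives about 1 in 20, or 4. Atp5e was 10.65 in fish oil-fed conventional mouse 5 and 10.20 to 10.36 in the other mice of that group. Cox4i2 was 7.96 in fish oil-fed conventional mouse 6, against 8.33 to 8.54. It was also 8.38 in lard-fed germ-free mouse 6, against 7.81 to 8.01. Cox6a2 was 8.30 in lard-fed germ-free mouse 1, against 8.17 to 8.21, and Uqcrc2 was 12.12 in the same mouse, against 11.98 to 12.03.

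The difference between conventional and germ-free mice depended on the diet for 3 subunit genes, by the interaction test over all genes in limma. Of all genes 7.20% passed this test, and 4.38% passed with a negative value, as these 3 did. The count among subunit genes is therefore close to the share over all genes and does not set them apart. Atp5b had an interaction of -0.40 (adjusted p = 0.00164), Uqcrc2 of -0.37 (adjusted p = 0.0278) and Atp5a1 of -0.32 (adjusted p = 0.0235).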

How the results depend on the processing

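With lard against fish oil, 39 subunit genes passed in conventional and 37 in germ-free mice. On leaving out each mouse in turn the counts were 39 throughout and 37 to 38, and the lowest under any alternative at the same threshold were 37 and 29. At least 1.5-fold left 17 and 20. For conventional against germ-free mice with lard, 36 passed. The count was 2 at 1.5-fold or more, 2 when lard-fed germ-free mice 2, 4 and 5 were left out, 21 with only the groups compared and 21 to 37 on leaving out each mouse. With fish oil 25 passed. The count was 1 at 1.5-fold or more, 12 with the liver term, 16 with repeated quantile normalization and 15 to 28 on leaving out each mouse. For the interaction 3 passed. The count was 0 at 1.5-fold or more, 7 when lard-fed conventional mice 5 and 6 were left out, 1 when lard-fed germ-free mice 2, 4 and 5 were, 6 with the liver term, 5 with median centring and 1 to 4 on leaving out each mouse. The change of Sdha with lard in germ-free mice reversed to 0.0465 with the liver term. Settings that left out mice fitted fewer mice, and otherwise the cause was not tested.

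With the mouse number as a replicate block, the counts were 39, 37, 33, 22 and 3 in the order above. Over all genes, the deviations of same-numbered mice from their group means correlated between -0.497 and 0.259. The labels state no pairing of mice. Over all genes, in the same order, the counts were 6178, 9468, 3240, 2464 and 1435, and at 1.5-fold or more 1627, 1985, 294, 361 and 385. With lard-fed germ-free mice 2, 4 and 5 left out they were 5278 (diet, germ-free), 177 (status, lard) and 225 (interaction). With lard-fed conventional mice 5 and 6 left out they were 5079 (status, lard) and 2710 (interaction), and with array weights 5033 and 2526. The liver term gave 5415 by diet in germ-free mice, and the interaction had 909, 861 and 925 on leaving out fish oil-fed conventional mouse 3, lard-fed conventional mouse 3 and lard-fed germ-free mouse 4.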
